A study of Drosophila melanogaster with 9 samples.

Results

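The genes yellow (y), white (w) and forked (f) give visible markers to the attached-X stock from which the metafemale larvae of this series were bred. They were found by gene symbol in the annotation and account for 3 of the 17714 genes and 11 of the 42937 transcripts in the deposited table. The transcriptomes of whole third-instar larvae of Drosophila melanogaster were measured by RNA-seq after removal of ribosomal RNA, with 3 libraries each of females (XX), males (XY) and metafemales (XXX). The study asked how gene expression responds to an additional X chromosome. The control females and males were Canton S wild type, and all larvae were raised at 25 °C on cornmeal sucrose medium. The metafemales came from C(1)DX, ywf/winscy mothers and Canton S fathers, so each carried 2 marked copies of y, w and f on the maternal attached X and 1 wild-type copy on the paternal X. A control female carried 2 wild-type copies and a control male 1. The metafemale larvae were recognised as females with black mouthparts, a colour that depends on the paternal y allele, so y took part in the choice of the animals. The mutant alleles of y, w and f are not given in the sources used here, and the counts do not separate the RNA of marked copies from that of the wild-type copy. The marked chromosomes were present only in metafemales, so X dose, the marker alleles and the strain of the maternal chromosomes cannot be told apart.

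Each marker reports on a different process in the fly. The y product is a secreted protein that is needed for black melanin in the cuticle, bristles and larval mouthparts. The w product is an ABC transporter subunit of the ABCG family that pairs with scarlet (st) or brown (bw) to carry the precursors of the brown ommochromes and the red drosopterins into pigment granules, and it acts in the eye and in the Malpighian tubules, the excretory organs of insects. The f products are ankyrin-repeat proteins that cross-link the actin bundles of growing bristles. In the adult, loss of y turns the body yellow, loss of w bleaches the eye and loss of f bends the bristles.

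All 3 genes lie on the X chromosome and were placed with the Ensembl annotation of assembly BDGP6. The gene y (FBgn0004034) spans 356509 to 361245 on the plus strand near the tip and has 1 transcript, y-RA, of 2 exons and 2038 exonic bases. The gene w (FBgn0003996) spans 2790599 to 2796466 on the minus strand and has 1 transcript, w-RA, of 6 exons and 2352 exonic bases. The gene f (FBgn0262111) is far longer and spans 17232942 to 17280964 on the plus strand, with 9 annotated transcripts, of which f-RB, f-RF and f-RH had counts and the other 6 had none in any library. The gene y lies within the span of CG32816 and w within that of kirre, both on the opposite strand with 0 exonic bases in common, and f has CG8915, CG42854 and CG8675 in its own introns on the opposite strand. The end of f overlaps the highly expressed CG8664 by 47 of the 9191 exonic bases of f, and whether the counting used strand is not given in the sources used here, so reads from these bases cannot be told apart.

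The libraries held between 130919406 and 184268612 counts, with the totals of the groups overlapping, and 3 counts in a library corresponded to 0.0163 to 0.0229 CPM (counts scaled to a library total of 1000000). The 4 Y-linked genes kl-2, kl-3, kl-5 and ORY were at 0 in every female and metafemale library. In metafemale 1, transcripts assembled by the authors without a gene name took 13.45% of the counts, against 24.55% to 32.59% in the other 8 libraries. Female 2 stood apart from the other females in the enzymes of cuticle pigment, with ple, the tyrosine hydroxylase, at 174 CPM against 4.23 and 6.73, and it also held the highest y and w of the females. Male 2 stood apart in a similar way, with Ddc, the dopa decarboxylase, at 342 CPM against 60.7 and 70.3. Nothing in the labels says that replicates were separate cultures, so the p-values measure only the spread between these libraries. In whole larvae, fewer cells of a type and less RNA per cell cannot be told apart.

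Of the markers, w was lower in metafemales than in both controls, y was higher than in males, and neither y nor f passed the test against females. Counts of y were few in all libraries: 38, 52 and 15 in females, 21, 38 and 24 in males, and 65, 61 and 65 in metafemales. These correspond to 0.206, 0.347 and 0.109 CPM in females, 0.158, 0.214 and 0.183 CPM in males, and 0.464, 0.363 and 0.385 CPM in metafemales. All metafemale libraries lay above all control libraries for y, although the lowest metafemale was close to the highest female, and females and males overlapped. The mean level of y was 0.404 ± 0.0533 CPM in metafemales, 0.220 ± 0.120 in females and 0.185 ± 0.0280 in males (SD, n = 3 each).

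Counts of w were 3798, 4827 and 3049 in females, 3266, 5769 and 2806 in males, and 2474, 2333 and 2478 in metafemales. The levels were 20.6, 32.2 and 22.1 CPM in females, 24.5, 32.4 and 21.4 CPM in males, and 17.7, 13.9 and 14.7 CPM in metafemales. All metafemale libraries lay below all control libraries for w, and replicate 2 was the highest in both control groups. The mean level of w was 15.4 ± 2.0 CPM in metafemales, 24.9 ± 6.30 in females and 26.1 ± 5.67 in males (SD, n = 3 each).

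Counts of f were 310, 292 and 298 in females, 159, 408 and 103 in males, and 549, 366 and 282 in metafemales. The levels were 1.68, 1.95 and 2.16 CPM in females, 1.19, 2.29 and 0.787 CPM in males, and 3.92, 2.18 and 1.67 CPM in metafemales. The female libraries were close to each other, while metafemale 1 and male 2 were far above the others of their groups, and the 3 groups overlapped. The mean level of f was 2.59 ± 1.18 CPM in metafemales, 1.93 ± 0.237 in females and 1.42 ± 0.779 in males (SD, n = 3 each). Per kilobase of exon, the level of w in females was 10.6 CPM per kb, against 0.317 for f and 0.108 for y, and the order was the same in males and metafemales.

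**Figure D1:**
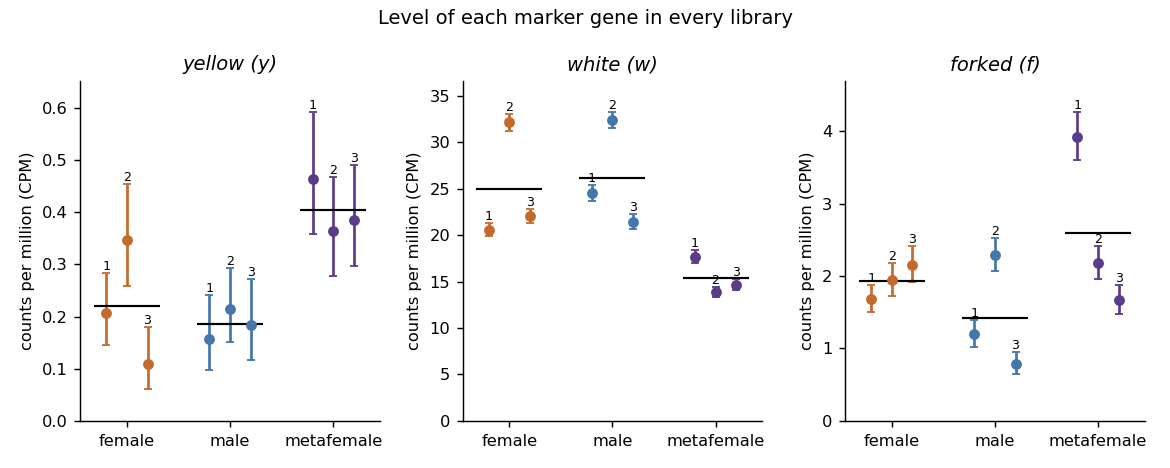
Level of y, w and f (vertical axis, CPM) in each of the 9 libraries, with the replicate number above each point, exact 95% Poisson intervals of the count as bars and the group mean as a horizontal line. The metafemale points lie above all control points for y, at 0.363 to 0.464 CPM, and below all control points for w, at 13.9 to 17.7 CPM. For f, metafemale 1 at 3.92 CPM lies above all control points, and metafemales 2 and 3, at 2.18 and 1.67 CPM, lie among them.

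In the comparison of metafemales with females, all 3 genes passed the filter on low counts. Of the 11972 genes tested with the quasi-likelihood test of edgeR, 38.5% had a Benjamini-Hochberg adjusted p below 0.05 (20.8% higher and 17.7% lower in metafemales), and 1 of the 3 markers, w, was among them. The level of w was lower in metafemales, with a log2 fold change of -0.68 (SE 0.17, 95% interval -1.08 to -0.28, adjusted p = 0.0202). That of y was 0.88 (SE 0.45, interval -0.19 to 1.95, adjusted p = 0.166), and that of f was 0.42 (SE 0.27, interval -0.21 to 1.05, adjusted p = 0.252). The intervals of y and f include no change and also an increase in proportion to the X copies. The CPM of the groups did not overlap for 50.7% of all genes tested, and this was so for y and w. Leaving out any 1 metafemale brought the adjusted p of w to between 0.0519 and 0.0615 with little change in its size. Without female 2, 25.3% of all genes were called, and w was at -0.45 (adjusted p = 0.0270), y at 1.33 (adjusted p = 0.0835) and f at 0.44 (adjusted p = 0.366).

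On its chromosome w stood with the minority. Of the 1766 X-linked protein-coding genes tested, 45.9% were higher in metafemales and 3.51% were lower, and w was among the latter. The ratio of mean CPM between metafemales and females was 0.618 for w, with 0.709, 0.557 and 0.588 in the individual metafemale libraries, against a median ratio of 1.32 over 2001 X-linked genes. Of these genes, 8.9% had a ratio below that of w. Divided by the X-linked median of the same library, w stood at 0.495, 0.469 and 0.455, so its distance from the chromosome was alike in all 3 metafemales. The ratio of y was 1.83 (2.11, 1.65 and 1.75 in the individual libraries), above that of 77.3% of the X-linked genes, and the ratio of f was 1.34 (2.03, 1.13 and 0.866), close to the middle with 52.3% of the genes below it. In the 2-sided exact permutation test over libraries, p was 0.1 for y and for w, the smallest that 20 assignments allow, and 0.5 for f. Without female 2 the ratio was 2.57 for y and 0.723 for w, and without female 3 it was 1.46 for y.

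**Figure D2:**
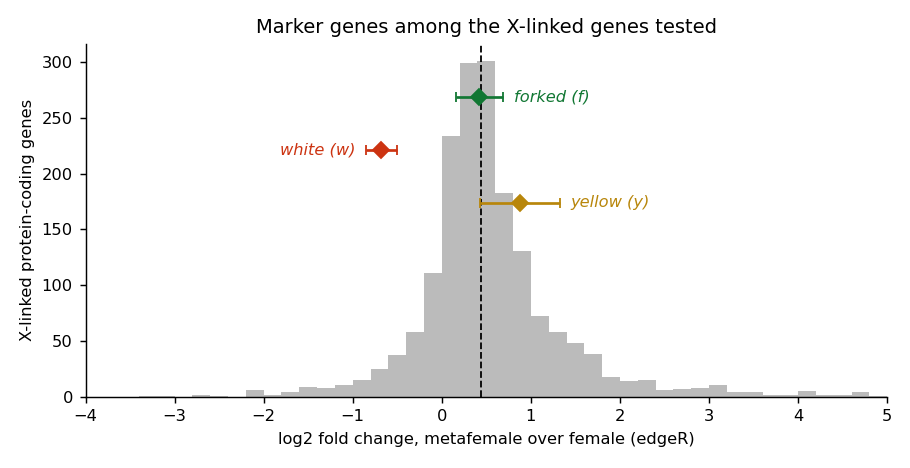
Distribution of log2 fold changes between metafemales and females (horizontal axis, edgeR) over the 1766 X-linked protein-coding genes tested (vertical axis, number of genes; 6 genes lie outside the plotted range), with the dashed line at their median of 0.44. Diamonds with bars of 1 SE mark w at -0.68, f at 0.42 and y at 0.88, at arbitrary heights.

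Read per copy of the gene, the markers gave different pictures. Per X copy, w was at 12.5 CPM in females, 26.1 in males and 5.14 in metafemales, y was at 0.110, 0.185 and 0.135, and f was at 0.964, 1.42 and 0.864. If only the wild-type copy of the metafemales is counted, the level of w per copy was 15.4 CPM, between those of females and males, whereas y at 0.404 CPM and f at 2.59 CPM were above both. These are divisions of the group means and were not tested.

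Against males, 45.6% of 13784 genes tested had an adjusted p below 0.05 (2404 higher and 3887 lower in metafemales). Among them were 2 of the 3 markers. In this comparison y was higher in metafemales, with a log2 fold change of 1.303 (SE 0.30, interval 0.59 to 2.01, adjusted p = 0.0122 in the quasi-likelihood test of edgeR). The level of w was lower, at -0.56 (SE 0.11, interval -0.83 to -0.30, adjusted p = 0.00648). For f the change was 1.09 (SE 0.38, interval 0.19 to 1.99) and just missed the threshold (adjusted p = 0.0527). The call of y was lost without male 1 (adjusted p = 0.0606), and f passed without male 2 (1.42, adjusted p = 0.0230), without metafemale 3 (1.32, adjusted p = 0.0398) and in DESeq2 (1.07, adjusted p = 0.0221). The groups did not overlap for 55.3% of the genes tested, y and w included. The metafemale libraries are the same as in the comparison with females, so the 2 comparisons are not independent.

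Between the controls, no marker passed the test, against 20.8% of 13677 genes (2667 higher and 175 lower in males). The log2 fold change of males over females was -0.06 for w (SE 0.18, interval -0.50 to 0.38, adjusted p = 0.903), although males carry 1 copy and females 2. It was -0.37 for y (SE 0.49, interval -1.54 to 0.81, adjusted p = 0.732) and -0.60 for f (SE 0.31, interval -1.34 to 0.13, adjusted p = 0.283). The directions of w and y rested on single libraries: without female 2 they were 0.153 for w and 0.0751 for y, and without male 1 w was at 0.0130. That of w also reversed with the scaling. Ordered by mean CPM, y and f ran from metafemale to female to male and w from male to female to metafemale, and the female and male neighbours in each order did not pass the test.

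The transcripts of f were not the same from library to library. The transcript f-RH, the longest in genomic span, had 137, 196 and 160 counts in females, 126, 259 and 61 in males, and 542, 0 and 0 in metafemales. It made up 98.7% of f in metafemale 1 and was not detected in metafemales 2 and 3, where 0 of 366 and 0 of 282 counts of f allow shares of up to 0.820% and 1.06% (counting error only, with counts that StringTie divided among transcripts). The transcript f-RB, which starts within the gene, had 137, 65 and 0 counts in females, 0, 0 and 42 in males, and 0, 174 and 133 in metafemales. Both f-RB and f-RH therefore reached 0 within the metafemales, f-RB in metafemale 1 and f-RH in metafemales 2 and 3. The transcript f-RF had 36, 31 and 138 counts in females, 33, 149 and 0 in males, and 7, 192 and 149 in metafemales. In metafemales 2 and 3 it held more counts than f-RB.

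On average f-RH held 55% ± 11.5 of f in females, 67.3% ± 10.6 in males and 32.9% ± 57.0 in metafemales (SD, n = 3 each). The difference in the share of f-RH between metafemales and females was -22.1 percentage points (2-sided exact permutation p = 0.6), that of f-RB was 9.42 points (exact p = 0.6) and that of f-RF 12.7 points (exact p = 0.8). With 3 libraries against 3 the test cannot give a p below 0.1. Over the libraries left out, the difference ran from -55.0 points without metafemale 1 to -5.64 without metafemale 2 or 3 for f-RH, from -1.66 without female 3 to 25.2 without metafemale 1 for f-RB, and from 4.02 without metafemale 3 to 29.8 without metafemale 1 for f-RF. In the transcript fit of edgeR, 8.26% of 28020 transcripts had an adjusted p below 0.05 between metafemales and females, and none of the 5 marker transcripts tested was among them. The unadjusted p was below 0.05 only for w-RA, at 0.0147. The log2 fold change of w-RA was -0.68 (SE 0.19, adjusted p = 0.0998), and it passed in DESeq2 (-0.66, adjusted p = 0.00718). For f-RH the fit gave 0.10 (SE 2.45, adjusted p = 0.988), and it rested on metafemale 1, since without this library the transcript was at 0 in the remaining metafemales (adjusted p = 0.0407). Metafemale 1 is also the library with the low share of assembled transcripts, and the part of that in the isoform counts was not tested.

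**Figure D3:**
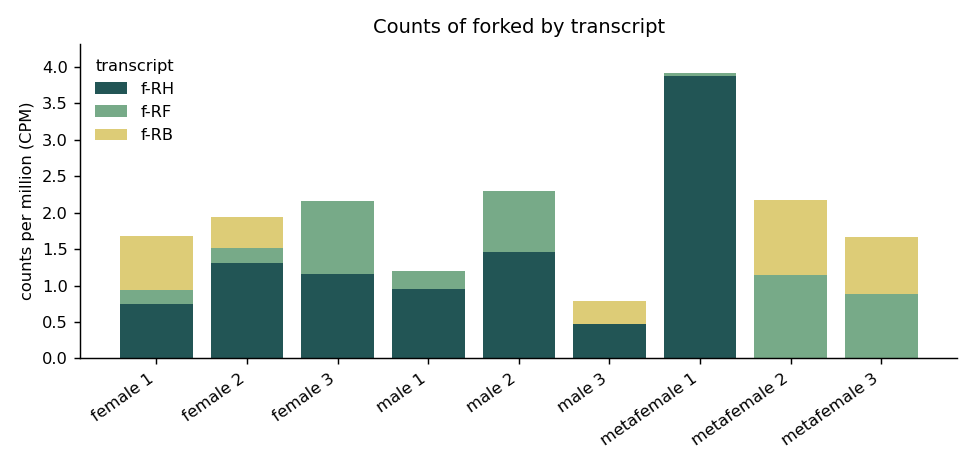
Level of f in each library (vertical axis, CPM) divided by transcript: f-RH, f-RF and f-RB, stacked from the bottom. Metafemale 1 consists of f-RH to 98.7%, metafemales 2 and 3 hold none, and the control libraries hold 44.2% to 79.3%.

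The genes around the markers were read against the X-linked protein-coding genes as a whole, of which 45.9% were higher and 3.51% lower. Of the 5 protein-coding genes on each side of y, 9 were tested between metafemales and females, of which 2 were higher and 2 lower, with log2 fold changes from -1.84 to 3.32 and a median of 0.54. The neighbour CG43182 was at 3.41, 2.63 and 2.48 CPM in females and 2.52, 3.10 and 3.41 CPM in metafemales, with overlapping groups (log2 fold change 0.11, adjusted p = 0.744). On the other side lies the proneural transcription factor achaete (ac), at 0.961, 1.45 and 1.57 CPM in females and 0.229, 0.345 and 0.486 CPM in metafemales. All metafemale libraries were below the females for ac, which fell by 1.84 on the log2 scale (SE 0.37, adjusted p = 0.00922). Between y and ac the non-coding RNA lncRNA:yar had 0, 21 and 0 counts in females, 38, 0 and 6 in males, and 14, 30 and 0 in metafemales. These counts were too few for a comparison. The ends of the range, and CG32816, were picked out after their values were seen. The highest of the y neighbours was Pgcl, and CG32816, within which y lies, rose from 8.91 ± 1.19 to 21.3 ± 9.15 CPM (SD, n = 3 each, log2 fold change 1.24, adjusted p = 0.00912).

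Around w, 6 of the 10 neighbours were tested, 3 were higher in metafemales and 0 lower, and their log2 fold changes ran from 0.06 to 4.77 with a median of 0.77. At -0.68, w thus lay below all of its tested neighbours. The adjacent CG32795 was at 96.3, 91.8 and 88.2 CPM in females and 233, 176 and 144 CPM in metafemales. Its groups did not overlap and it rose by 1.01 on the log2 scale (SE 0.15, adjusted p = 0.0036). The neighbour on the other side, CG12498, was at 0 counts in all female and metafemale libraries and at 1.32, 2.15 and 1.45 CPM in males. The host gene kirre, an immunoglobulin-family adhesion protein of muscle founder cells, was at 150, 143 and 211 CPM in females and 377, 149 and 215 CPM in metafemales, with overlapping groups (0.54, adjusted p = 0.160).

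Around f, 5 of the 10 neighbours were tested, of which 2 were higher and 0 lower, from -0.21 to 3.46 with a median of 0.38. The upstream CG10597 was at 0.0923, 0.0333 and 0 CPM in females and 0.850, 0.417 and 0.261 CPM in metafemales (3.46, SE 0.98, adjusted p = 0.0315). CG8915, which lies in an intron of f, was at 6.15, 7.18 and 7.604 CPM in females and 10.04, 7.91 and 8.84 CPM in metafemales (0.38, SE 0.10, adjusted p = 0.0228). Both were above the females in all metafemale libraries, and neither passed without female 2, where 0 of the 5 were called. Of the neighbours of y and w, 2 and 3 were higher and 1 and 0 lower without that library.

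**Figure D4:**
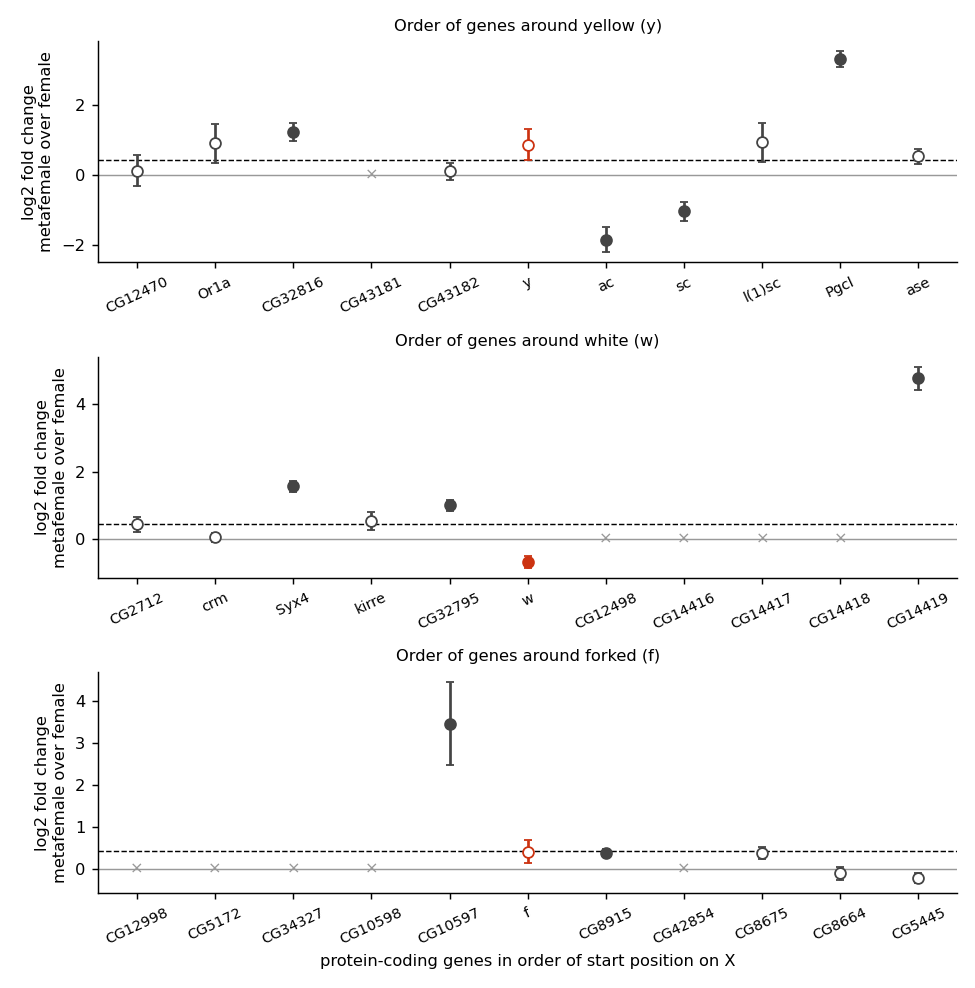
Log2 fold change between metafemales and females (vertical axis, edgeR, bars of 1 SE) for y, w and f in red and the 5 protein-coding genes on each side in grey, in order of their start on X (not to distance). Filled points have an adjusted p below 0.05, crosses mark genes with too few counts to test, and the dashed line is the median of the X-linked genes, 0.44. The point of w, at -0.68, lies below all its tested neighbours, which span 0.06 to 4.77.

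For each marker the genes with the most similar profile over the 9 libraries were found. Likeness was the root mean square difference of centred log2 (CPM + 0.1) over 10399 protein-coding genes that averaged 1 CPM or more. For y the nearest were CG3285 (2L, 0.144), CG11034 (2L, 0.160) and CG10359 (3L, 0.192), where the median gene was at 0.616. At 0.109 to 0.464 CPM, y is near the added 0.1, which flattens its profile more than those of the genes searched. For w they were Sh3beta (3L, 0.0877), slmb (3R, 0.0949), the F-box protein of a ubiquitin ligase, and ecd (3L, 0.103), and the median gene was at 0.484. For f they were Nmdar2 (X, 0.170), a glutamate receptor subunit, CG11883 (2R, 0.190) and CG15312 (X, 0.193), with the median gene at 0.635. The profiles share the library depth and the composition of the larvae.

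Cuticle pigment is made from dopamine and related precursors, and y acts late in this pathway. Of 14 genes for the synthesis and use of these precursors, 4 were higher in metafemales and 1 lower, where 38.5% of all genes tested were called (20.8% higher and 17.7% lower), with a median log2 fold change of 0.18 against -0.02 over all genes. The enzyme tan (t), which releases dopamine from its beta-alanyl conjugate, was at 13.5, 12.02 and 11 CPM in females and 30.8, 21.2 and 25.2 CPM in metafemales. Its groups were far apart, and it rose by 1.082 on the log2 scale (SE 0.14, adjusted p = 0.00224). The gene t is X-linked, and 45.9% of X-linked protein-coding genes were higher. The acetyltransferase speck, which diverts dopamine from pigment, rose by 1.15 (SE 0.18, adjusted p = 0.00366), and PPO2, a phenoloxidase of crystal cells, by 1.22 (SE 0.39, adjusted p = 0.0475).

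The opposite direction was seen for Punch (Pu), the GTP cyclohydrolase that supplies the pterin cofactor of ple and the drosopterins. It was at 65.0, 160 and 106 CPM in females and 18.3, 18.3 and 28.1 CPM in metafemales, without overlap, and fell by 2.31 on the log2 scale (SE 0.35, adjusted p = 0.00353). For the enzymes ple, Ddc and ebony (e), female 2 was far above the other females. For ple the log2 fold change was -2.49 (adjusted p = 0.183) with this library and 1.01 (adjusted p = 0.036) without it, and for e it was -3.20 (adjusted p = 0.125) and 0.56 (adjusted p = 0.335). Ddc was at 55.8, 205 and 69.8 CPM in females and 33.0, 19.4 and 50.2 CPM in metafemales. Its groups did not overlap (log2 fold change -1.66, adjusted p = 0.0540). The laccase straw (stw) was at -0.12 (adjusted p = 0.590). Without female 2 the list again had 4 genes higher and 1 lower, and PPO2 no longer passed (adjusted p = 0.136).

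Of 13 relatives of y in the yellow family, 12 were tested, and 4 were higher and 2 lower in metafemales (3 and 2 without female 2), with a median of -0.01, beside 38.5% of all genes called. The members yellow-f and yellow-f2, both dopachrome conversion enzymes, went opposite ways. The levels of yellow-f were 54.98, 71.0 and 63.9 CPM in females and 15.7, 19.1 and 29.4 CPM in metafemales (log2 fold change -1.52, SE 0.27, adjusted p = 0.00596). Those of yellow-f2 were 0.261, 0.133 and 0.311 CPM in females and 3.12, 1.48 and 1.59 CPM in metafemales (3.11, SE 0.40, adjusted p = 0.00216). Neither overlapped between the groups. Likewise yellow-e fell by 1.56 (SE 0.21, adjusted p = 0.00257) and yellow-e2 rose by 1.45 (SE 0.22, adjusted p = 0.00328).

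The transport partners of w also moved apart from each other. The level of brown (bw), the drosopterin partner, was 4.72, 10.8 and 7.37 CPM in females, 9.24, 29.5 and 10.9 CPM in males, and 0.929, 1.35 and 2.23 CPM in metafemales. It was lower in metafemales in all libraries, and fell by 2.28 on the log2 scale against females (SE 0.43, adjusted p = 0.00743). The level of scarlet (st), the ommochrome partner, was 1.36, 0.713 and 1.07 CPM in females, 1.38, 0.883 and 1.36 CPM in males, and 7.02, 5.24 and 5.34 CPM in metafemales. It was higher in metafemales in all libraries and rose by 2.48 (SE 0.27, adjusted p = 0.00127). The gene w, which serves both, fell by less than bw, and without female 2 the changes were -1.94 for bw and 2.27 for st. Across the 14 other ABCG transporter genes 3 were higher and 8 lower, with a median of -0.69, where 20.8% and 17.7% of all genes were, and the counts were the same without female 2 and without metafemale 1. The ABCG genes E23, an ecdysone-responsive transporter, and CG4822 fell by 2.57 (SE 0.44, adjusted p = 0.00536) and 1.65 (SE 0.29, adjusted p = 0.00563).

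Of 14 enzymes of eye pigment synthesis 4 were higher and 4 lower, with a median of -0.34, beside the same shares of all genes. Of the higher ones, v, mal and cin are X-linked and KFase lies on 2L. Among X-linked protein-coding genes, 45.9% were higher and 3.51% lower. In the ommochrome branch, vermilion (v), the tryptophan dioxygenase that opens the pathway, was at 6.88, 8.39 and 7.74 CPM in females and 20.6, 26.7 and 20.7 CPM in metafemales. It was far above the females in all metafemale libraries (log2 fold change 1.61, SE 0.18, adjusted p = 0.00142). The next enzyme named, cinnabar (cn), the kynurenine monooxygenase, was at 0.510, 0.493 and 0.304 CPM in females and 0.150, 0.196 and 0.154 CPM in metafemales, also without overlap (-1.36, SE 0.38, adjusted p = 0.0291), and it did not pass without female 2 (adjusted p = 0.0933). In the pterin branch, Dhpr, which regenerates the pterin cofactor, fell by 1.83 (SE 0.27, adjusted p = 0.00308), like Pu above, while maroon-like (mal), which activates molybdenum enzymes, rose by 1.04 (SE 0.11, adjusted p = 0.00123). Without female 2 the list had 4 genes higher and 2 lower.

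Of 13 genes listed with the pigment granules, into which w delivers its cargo, 3 were higher and 2 lower, with a median of 0.04, where 38.5% of all genes were called. The list is not limited to granule formation, and the enzyme gene ras is among its lower members. Rab32, the granule GTPase also known as lightoid, was at 85.2, 105 and 110 CPM in females and 53.1, 40.9 and 43.9 CPM in metafemales, without overlap (-1.10, SE 0.09, adjusted p = 0.000728). The X-linked ras, an IMP dehydrogenase, was lower (-0.66, adjusted p = 0.0357), and the X-linked trafficking genes garnet (g) and carnation (car) were higher, by 0.54 (adjusted p = 0.0115) and 0.53 (adjusted p = 0.00352). Without female 2, ras no longer passed (adjusted p = 0.0756). Among X-linked protein-coding genes, 45.9% were higher and 3.51% lower.

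Of 20 genes of actin bundles, bristles and hairs, the structures in which f acts, 2 were higher and 4 lower, with a median of -0.17, where 20.8% and 17.7% of all genes tested were. Without female 2, where 25.3% of all genes were called in place of 38.5%, the counts were 2 and 0. Singed (sn), the fascin that bundles actin next to f, was at 85.6, 132 and 105 CPM in females and 103, 70.8 and 104 CPM in metafemales, with overlapping groups (-0.20, SE 0.18, adjusted p = 0.418). Fimbrin (Fim), another bundling protein, was at 95.8, 118 and 106 CPM in females and 250, 155 and 191 CPM in metafemales. It was above the females in all libraries (0.90, SE 0.13, adjusted p = 0.00314). Multiple wing hairs (mwh), which restricts hair formation to a single site per cell, was at 7.36, 7.31 and 6.45 CPM in females and 22.0, 22.0 and 23 CPM in metafemales, likewise without overlap (1.69, SE 0.14, adjusted p = 0.000651). The epidermal transcription factor ovo and the Kelch protein kel fell by 0.67 (adjusted p = 0.0365) and 0.52 (adjusted p = 0.0202), and neither passed without female 2 (adjusted p = 0.112 and 0.0757). Of the genes named here, sn, Fim and ovo are X-linked, and 45.9% of X-linked protein-coding genes were higher and 3.51% lower.

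**Figure D5:**
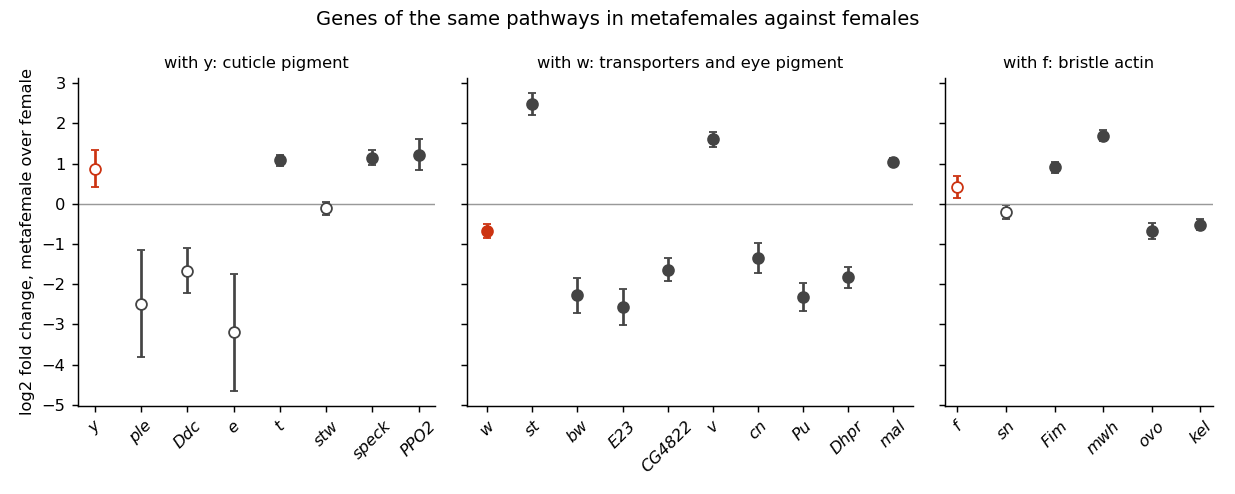
Log2 fold change between metafemales and females (vertical axis, edgeR, bars of 1 SE) of y, w and f in red, each beside named genes of its pathway in grey, with filled points for an adjusted p below 0.05. The point of w at -0.68 lies between its partners bw at -2.28 and st at 2.48, and ple, Ddc and e carry wide bars, with female 2 far above the other females.

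As a comparison on the same chromosome, 22 other X-linked genes known for visible mutants were tested, of which 10 were higher and 4 lower in metafemales, with a median of 0.37, where 45.9% and 3.51% of the X-linked genes were. Without female 2, with 25.3% of all genes called, the counts were 6 and 2. Among the higher ones, inflated (if), an integrin subunit, rose by 1.05 (SE 0.11, adjusted p = 0.00115), rudimentary (r), of pyrimidine synthesis, by 0.80 (SE 0.10, adjusted p = 0.00179) and lozenge (lz), a Runx transcription factor, by 0.73 (SE 0.20, adjusted p = 0.0304). The lower ones, of which ec, m and dy were picked out after their values were seen, were ras, echinus (ec), miniature (m) and dusky (dy). The change of ec was -0.66 (adjusted p = 0.0338) and that of m, a zona pellucida domain protein of the wing cuticle like dy, was -2.05 (adjusted p = 0.00337). The level of dy was 0.255, 0.307 and 0.260 CPM in females and 0 in all metafemale libraries. The value of f, 0.42, was close to this median, that of y was above it and that of w below it.

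Markers of several tissues and of stage were also read in the 3 groups. Of all genes tested between metafemales and females, 20.8% were higher and 17.7% lower. Of 13 markers of the Malpighian tubules, where w acts in the larva, 7 were higher and 0 lower in metafemales (2 and 4 when the scaling is taken from X-linked genes), and their summed level was 395 to 545 CPM in metafemales against 314 to 363 in females and 317 to 372 in males. Of 9 tested markers of the eye disc, whose pigment cells later use w, 0 were higher and 4 lower, with a summed level of 94.1 to 136 CPM in metafemales, 158 to 189 in females and 129 to 244 in males. Without female 2, 3 eye disc markers were lower, and without metafemale 1, 2 were. Of 11 tested markers of the epidermis and its cuticle, where y and f act, 2 were higher and 3 lower, with sums of 5904 to 7440 CPM in metafemales, 3489 to 5513 in females and 3852 to 6111 in males. Most of this sum came from the cuticle proteins Lcp3 and Lcp4, at 1560 and 3856 CPM on average in metafemales against 1146 and 2391 in females, neither of which passed (adjusted p = 0.302 and 0.0569). All 6 salivary glue genes, which are switched on late in the last instar, were lower in metafemales, with sums of 908 to 1902 CPM against 6109 to 7660 in females and 6967 to 9584 in males. Without female 2, 4 of the 6 were called lower, and without metafemale 1, 5 were. Of 6 tested testis markers 0 were higher and 3 lower. No list had a defining marker at 0 in every library, and the part of tissue make-up or of stage in the levels of y, w and f was not tested.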

How the data were processed

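The deposited table holds estimated counts per transcript, given by the authors as whole numbers for 9 libraries. Per the study's methods, reads of 150 bases at each end were aligned with Hisat2 2.0.5, merged with Cuffmerge 2.2.1 and quantified with StringTie 1.3.3 against Ensembl release 102 (BDGP6). Of 34919 FlyBase transcript rows, 34750 were paired with genes through Ensembl release 115 (BDGP6.54) and summed. The 8017 assembled rows entered only the library totals.

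Genes were tested with the quasi-likelihood test of edgeR 4.0.16 (TMM factors, filterByExpr, Benjamini-Hochberg adjustment over all genes tested) on the libraries of the 2 groups compared, and called at an adjusted p below 0.05. SE is the log2 fold change divided by the square root of F. DESeq2 1.42.0, other scalings and filters, a block for the replicate number and each library left out were alternatives. CPM ratios and shares were compared with exact permutation tests. On data simulated for metafemales and females, 197 of 200 genes changed 4-fold were recovered, with 12 other calls among 12032 genes. The simulation gave all genes the same spread, changed only genes above a minimum count and left the others unchanged. Recovery of changes as small as those of y, w and f was not tested.

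Named were y, w and f with their transcripts, their nearest protein-coding neighbours, the 3 nearest profiles, bw, st, ple, Ddc, e, t, stw, v, cn, sn and Fim, and up to 4 further genes of a list with the largest called change and a mean of at least 1 CPM. Members, lists and tests were chosen with earlier results of these data known. Intervals and floors cover counting error only. Strand use in counting is not given in the sources used here.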

Additional observations from a re-analysis of the deposited data

How the results depend on the processing

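Between metafemales and females, w kept its direction under all 15 alternatives and lost its call in the 3 that left out a metafemale (log2 fold changes over all leave-one-out fits -0.79 to -0.45). With TMM factors from X-linked protein-coding genes, chosen after seeing the data, the median of all genes moved from -0.02 to -0.45, the calls from 2493 higher and 2114 lower to 1290 and 5342, w to -1.11 (adjusted p = 0.00267), y to 0.44 (adjusted p = 0.448) and f to -0.00014 (adjusted p = 0.9997). Under it, the pigment granule genes had 0 higher and 7 lower, the bristle actin genes 2 and 13, the other X-linked visible genes 3 and 8 and the Malpighian markers 2 and 4. With annotated library sizes the median of all genes was -0.17, with 1977 higher and 3092 lower. The CPM ratio over leave-one-out values was 1.46 to 2.57 for y, 0.568 to 0.723 for w and 0.998 to 1.58 for f. In DESeq2 w-RA passed (-0.66). For f-RH, the fit ranged from -10.4 to 0.69 over the libraries left out and was -6.63 with the replicate block, values that depend on the prior count where libraries are at 0. Between metafemales and males, y lost its call with the X-linked scaling (0.68, adjusted p = 0.0959) and ranged from 1.16 to 1.45 over the libraries left out, and f passed in DESeq2 (1.07) and in the fit of all 9 libraries (1.05, adjusted p = 0.0306), with 0.75 to 1.42 over the libraries left out. Requiring 10 counts in every library gave 4074 calls in place of 6291 there and 735 in place of 2842 between males and females, with fewer genes tested. Between males and females, y reversed without female 2 (0.0751) and without replicate 2 of both groups (0.0754, leave-one-out range -0.69 to 0.0751), w reversed with the whole-table library size (0.0668), the annotated library size (0.0457), the X-linked scaling (0.0643), without female 2 (0.153), without male 1 (0.0130) and without replicate 2 of both groups (0.0903, leave-one-out range -0.15 to 0.15), and f passed without male 2 (leave-one-out range -0.97 to -0.42). The cause of these shifts was not tested.

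Replicate numbers did not clearly mark pairs. Same-numbered libraries of metafemales and females deviated from their group means with correlations of 0.036, -0.078 and 0.064. Those of metafemales and males had 0.052, -0.229 and -0.111, and those of males and females 0.164, 0.161 and -0.07. Differently numbered libraries ran from -0.113 to 0.072, from -0.118 to 0.238 and from -0.252 to 0.181, in the same order. Whether libraries were collected as pairs is not settled by these values. With the number as a block, the calls of y and w against males were lost (1.31, adjusted p = 0.0780, and -0.56, adjusted p = 0.0552), and against females w was at -0.65 (adjusted p = 0.0332), y at 1.01 and f at 0.36. The block gave 2251 calls between males and females in place of 2842. Depth limits y most, with 15 to 65 counts per library.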
